A study of Mus musculus with 6 samples.

Results

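The genes described here are 10 transcription regulators of the AP-1 and immediate early class in a preparation of mouse alveolar epithelial type II (AT2) cells: Fos, Fosb, Fosl1, Fosl2, Jun, Junb, Jund, Egr1, Ier2 and Atf3. They were taken by symbol from a raw count table of 52550 genes, and all 10 were among the 18849 genes with enough counts to be tested. RNA had been sequenced from C57BL/6 lung cells freed with dispase and enriched magnetically as CD45- and EPCAM+. The 3 libraries labelled Grp78KO came, by their genotype label, from Sftpc+/creERT2; Grp78f/f mice with tamoxifen (Tmx), and the 3 Control libraries from Sftpc+/creERT2; Grp78f/f mice without it. Every mouse thus carried the inducible Cre at the surfactant protein C locus, which acts in cells that express Sftpc, and the floxed Grp78 (Hspa5) alleles. Tamoxifen and loss of Grp78 cannot be told apart in this design. The day label gives 10 days after a tamoxifen injection for all 6 samples, and so disagrees with the genotype given for the Control mice.

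AP-1 is a dimer of basic leucine zipper (bZIP) proteins, formed by a Jun protein with a Fos protein, another Jun protein or an ATF protein, that binds short DNA elements in promoters and enhancers. Immediate early genes are transcribed within minutes of a growth factor, cytokine or stress signal without new protein synthesis. MAP kinases drive this through serum response factor (SRF) with its ternary complex partners, through CREB and through Jun itself. In lung epithelium the class responds to injury and stretch, and in many tissues it is also induced while cells are being dissociated with enzymes. Fosl1 and Fosl2 lack the strong activation domain of Fos and Fosb and usually accumulate later. Atf3 is in addition a target of ATF4 and CHOP in the integrated stress response.

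The targeted gene went against its label: Hspa5 was at 9262, 9180 and 3809 CPM in the libraries labelled Grp78KO 1, 2 and 3, against 1355, 1288 and 925 CPM in Control 1, 2 and 3. Counts per gene cover the floxed and the remaining exons together, so they do not check recombination. Each direction below is between libraries as labelled. CPM, a gene's count as a share of its library's total, is scaled throughout with trimmed mean of M-values (TMM) factors. Log2 folds are Grp78KO over Control with a standard error (SE), and a gene was called at a Benjamini-Hochberg adjusted p under 0.05 in edgeR's quasi-likelihood test over all 18849 genes. Library totals ran from 110770711 to 149520306 counts. Whether replicates were separate animals is not in the labels; the p-values therefore reflect the variation among these 6 samples, and some of it could be technical. All 9 AT2 markers checked were expressed and all 9 were called lower, and they summed to 39983 to 50638 CPM in the Grp78KO-labelled libraries and 102716 to 119631 CPM in Controls. In bulk RNA, fewer cells of a type and less RNA per cell cannot be told apart.

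Of the 10 genes, 7 fell and 2 rose. Fos, Fosb, Jun, Junb, Jund, Egr1 and Ier2 were lower in the Grp78KO-labelled libraries, while Fosl1 and Fosl2 were higher, and Atf3 did not pass the test. Over all genes tested, 36.8% were called, 18.8% lower and 18.0% higher. Every Grp78KO-labelled library lay below every Control for the same 7 genes (26.6% of all genes tested did so) and above every Control for Fosl1 and Fosl2 (25.0%), so that 9 of the 10 genes had groups without overlap, against 51.6% of all genes tested. The median log2 fold of the 10 genes was -0.67, against 0.02 for all genes tested. Together the 10 genes took 0.419%, 0.462% and 0.405% of all counts in the libraries labelled Grp78KO 1, 2 and 3, and 0.523%, 0.602% and 0.587% in Control 1, 2 and 3.

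**Figure D1:**
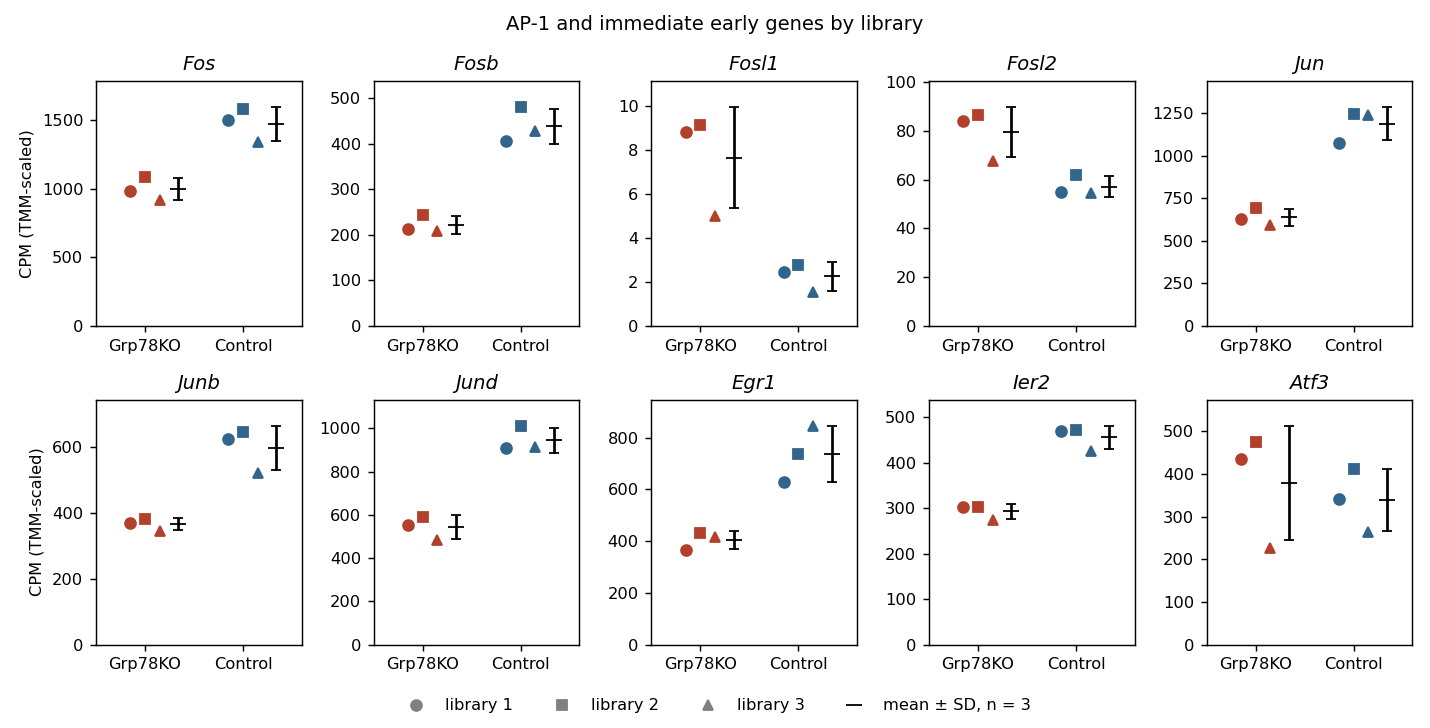
CPM (TMM-scaled, vertical axis from 0) of each of the 10 genes in the 3 libraries labelled Grp78KO (left in each panel) and the 3 Control libraries (right); symbols mark the replicate number and black bars the mean ± SD (n = 3). The groups are separate for 9 genes and overlap for Atf3.

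Upstream sequence was examined for the genes that fell together and for Atf3, since these factors are known to act on each other's promoters. RefSeq windows (GRCm38.p6) were found for 7 of the 10 genes, and the 250 bases before the start, less any base in an annotated exon, are given 5′ to 3′ for 5 of them. Capitals mark matches, on either strand, to TGACG (the core of the cAMP response element, bound by CREB and ATF proteins), TGACATCA (an AP-1 and CREB element variant), TGATGNAA (the core of the composite element bound by C/EBP and ATF proteins, here on the reverse strand as TTGCATCA), TATAAA and CCAAT.
Fos, chr12:85473640-85473889, plus strand: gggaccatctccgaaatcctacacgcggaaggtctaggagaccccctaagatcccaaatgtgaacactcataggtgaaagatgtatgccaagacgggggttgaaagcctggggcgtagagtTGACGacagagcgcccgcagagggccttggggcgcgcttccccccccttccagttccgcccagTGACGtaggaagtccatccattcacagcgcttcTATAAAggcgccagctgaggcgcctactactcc
Fosb, chr7:19310052-19310295, minus strand: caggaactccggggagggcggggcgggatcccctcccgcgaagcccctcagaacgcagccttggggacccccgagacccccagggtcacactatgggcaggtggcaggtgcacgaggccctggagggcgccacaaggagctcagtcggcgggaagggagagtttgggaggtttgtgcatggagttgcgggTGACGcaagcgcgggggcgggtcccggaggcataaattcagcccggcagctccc
Jun, chr4:95052223-95052472, minus strand: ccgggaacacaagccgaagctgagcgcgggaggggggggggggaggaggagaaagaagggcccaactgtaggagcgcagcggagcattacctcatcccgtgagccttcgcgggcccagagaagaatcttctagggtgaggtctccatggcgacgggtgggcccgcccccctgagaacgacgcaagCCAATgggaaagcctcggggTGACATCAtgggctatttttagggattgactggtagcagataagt
Junb, chr8:84978749-84978998, minus strand: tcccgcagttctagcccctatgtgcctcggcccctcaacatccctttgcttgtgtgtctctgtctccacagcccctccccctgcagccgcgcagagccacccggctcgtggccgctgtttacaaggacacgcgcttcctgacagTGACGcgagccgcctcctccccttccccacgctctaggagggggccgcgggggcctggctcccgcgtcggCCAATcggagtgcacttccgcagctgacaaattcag
Atf3, chr1:191183341-191183583, minus strand: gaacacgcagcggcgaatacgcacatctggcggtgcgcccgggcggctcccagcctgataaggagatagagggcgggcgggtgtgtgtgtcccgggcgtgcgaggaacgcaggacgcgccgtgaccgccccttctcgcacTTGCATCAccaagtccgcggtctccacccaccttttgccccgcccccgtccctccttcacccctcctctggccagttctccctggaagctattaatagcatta
The Atf3 start used by RefSeq lies inside the longer GENCODE gene. The Jund window (chr8:70697489-70697738), before a RefSeq start upstream of the GENCODE gene, held no match to any motif searched, and the Fosl2 window lay wholly in annotated exons; neither is printed.
Fos held TGACG beginning 129 and 66 bases before the start and TATAAA at 33 bases. Fosb held TGACG at 60 bases and Junb at 106 bases, while Jun held TGACATCA at 45 bases. TGACG occurred in 17.8% of all 32851 windows of the same length, TGACATCA in 2.93%, TATAAA in 12.4% and CCAAT in 33.8%. The composite core in Atf3 began 110 bases before the start and occurred in 3.45% of windows. Atf3 also held TGACG on the reverse strand, 7 bases before the start, among the annotated exon bases left out of its printed sequence. All shares are for whole windows, with exon bases kept. The canonical AP-1 site TGACTCA (4.46% of windows), the full cAMP response element TGACGTCA (1.55%, it contains TGACG) and the serum response element (CArG box, 1.47%) matched none of the printed windows. Bases further upstream than 250 were not searched, so such elements may lie outside these windows. Egr1, Ier2 and Fosl1 had no window to search. A match describes letters only and shows no binding.

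Fos and Fosb, the Fos family members with strong activation domains, fell. Fos (ENSMUSG00000021250, chr12:85473890-85477273, mm10) was at 988, 1087 and 923 CPM in the libraries labelled Grp78KO 1, 2 and 3, against 1502, 1580 and 1341 CPM in Control 1, 2 and 3. The groups did not overlap, and Fos was 1.48-fold lower (log2 fold -0.56, SE 0.132, edgeR adjusted p = 0.0149). Its call ended in 3 alternatives. The adjusted p in edgeR was 0.0607 without Grp78KO 1 (log2 fold -0.55), 0.0769 without Control 2 (-0.52) and 0.0558 with scaling by library size (-0.30). Leaving out Grp78KO 1 or Control 2 also cut the genes called over the whole table, from 6938 to 3981 and 3706. Fosb (chr7:19302696-19310051) was at 213, 244 and 208 CPM in the Grp78KO-labelled libraries, against 406, 480 and 428 CPM in Controls. This was the deepest fall of the 10 genes, 1.98-fold (log2 fold -0.98, SE 0.119, edgeR adjusted p = 0.00134).

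Fosl1 and Fosl2, which encode FRA1 and FRA2, rose, and both stood far below Fos per length of exon. Fosl1 (chr19:5447547-5455946) was at 8.80, 9.13 and 5.02 CPM in the libraries labelled Grp78KO 1, 2 and 3, against 2.47, 2.76 and 1.52 CPM in Control 1, 2 and 3. Library 3 was the lowest of its group on both sides, yet Grp78KO 3 still exceeded every Control, and the rise was 3.39-fold (log2 fold 1.76, SE 0.299, edgeR adjusted p = 0.00447). The 3′ part of the Fosl1 gene overlaps Ccdc85b on the opposite strand, and the strand setting of the counts is not stated; Ccdc85b was at 11.1, 10.9 and 9.14 CPM in the Grp78KO-labelled libraries and 12.2, 12.6 and 11.5 CPM in Controls. Fosl2 (chr5:32135801-32157842) was at 84.1, 86.5 and 67.7 CPM in the Grp78KO-labelled libraries, against 55.0, 61.9 and 54.3 CPM in Controls. Its rise was smaller, 1.39-fold (log2 fold 0.48, SE 0.116, edgeR adjusted p = 0.0169). The Fosl2 call ended without Grp78KO 1, Grp78KO 2, Control 1 or Control 3, at edgeR adjusted p of 0.0621, 0.0725, 0.0639 and 0.056 and log2 folds of 0.43, 0.41, 0.44 and 0.44. Those fits called 3981, 3779, 5258 and 5865 genes over the whole table, against 6938 with all 6 libraries.

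Per kilobase of annotated exon, the Fos family stayed dominated by Fos itself while its make-up shifted. Fos gave 90.0% ± 0.188 of the summed CPM per kb of the 4 Fos family genes in the Grp78KO-labelled libraries and 89.0% ± 0.769 in Controls (SD, n = 3 each). Fosb gave 7.51% ± 0.189 and 9.98% ± 0.756 of it in the Grp78KO-labelled and Control libraries. Fosl1 and Fosl2 together gave 2.79%, 2.61% and 2.17% in the libraries labelled Grp78KO 1, 2 and 3, against 0.971%, 1.03% and 0.986% in Control 1, 2 and 3. Fos exceeded Fosl2 by 48.3 to 56.1 times per kb in the Grp78KO-labelled libraries and by 102 to 112 times in Controls. These ranges do not overlap, but they restate the opposite directions of the family members and were not tested. Exon lengths were unions over GENCODE M21 transcripts and may not be those the authors counted over.

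All 3 Jun genes fell by similar amounts. Jun (chr4:95049034-95052222) encodes c-Jun, a Jun protein with which Fos proteins pair in order to bind DNA. Jun was at 628, 693 and 590 CPM in the libraries labelled Grp78KO 1, 2 and 3, against 1074, 1245 and 1239 CPM in Control 1, 2 and 3, a 1.86-fold fall (log2 fold -0.90, SE 0.129, edgeR adjusted p = 0.00247). Junb (chr8:84974484-84978718), a weaker activator that can oppose Jun, was at 371, 381 and 346 CPM against 626, 648 and 521 CPM in Controls (log2 fold -0.71, SE 0.124, edgeR adjusted p = 0.00507). Jund (chr8:70698949-70700616), the Jun gene expressed most steadily in resting cells, was at 553, 590 and 482 CPM against 911, 1012 and 913 CPM in Controls (log2 fold -0.80, SE 0.127, edgeR adjusted p = 0.00351). No Grp78KO-labelled library reached the lowest Control for any of the 3 genes.

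The balance within the Jun family barely moved. Of its summed CPM per kb, Jund gave 47.5% ± 1.04 in the Grp78KO-labelled libraries and 47.3% ± 0.174 in Controls, and Jun gave 29.2% ± 0.593 and 31.0% ± 2.17 (SD, n = 3 each). Junb made up the rest, and the ranges of the groups overlapped for all 3 shares. Junos, an antisense gene that overlaps Jun, was at 13.8, 13.7 and 19.6 CPM in the Grp78KO-labelled libraries and 25.2, 29.0 and 34 CPM in Controls. Prdx2 overlaps the end of Junb on the other strand and was at 117 to 129 CPM in the Grp78KO-labelled libraries and 118 to 152 CPM in Controls, so a part of these reads could not be assigned without strand.

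Egr1 and Ier2, immediate early genes outside the bZIP families, also fell. Egr1 (chr18:34859823-34864984) encodes a zinc finger factor induced by MAP kinase signalling through SRF. It was at 366, 431 and 416 CPM in the libraries labelled Grp78KO 1, 2 and 3, against 629, 735 and 845 CPM in Control 1, 2 and 3, a 1.82-fold fall (log2 fold -0.86, SE 0.145, edgeR adjusted p = 0.00426). Its spread among Controls (coefficient of variation 14.7%) was the widest of the 7 genes that fell. Ier2 (chr8:84661331-84662852), a small nuclear regulator, was at 303, 303 and 273 CPM against 469, 472 and 426 CPM in Controls (log2 fold -0.64, SE 0.107, edgeR adjusted p = 0.0043). Ier2 varied least among Controls of the 10 genes, by 5.61%.

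Atf3 overlapped between the groups. Atf3 (chr1:191170296-191218039) encodes a bZIP factor that represses as a homodimer and can activate when paired with Jun. It was at 435, 475 and 225 CPM in the libraries labelled Grp78KO 1, 2 and 3, against 342, 411 and 264 CPM in Control 1, 2 and 3. Grp78KO 1 and 2 were the highest libraries and Grp78KO 3 the lowest, so the log2 fold of 0.16 with an SE of 0.286 missed the threshold (edgeR adjusted p = 0.687). The result depended on the libraries numbered 3: without both, the log2 fold was 0.28 and passed the test (SE 0.0917, edgeR adjusted p = 0.0262), while without Grp78KO 2 the log2 fold was -0.037 (edgeR adjusted p = 0.943).

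Ddit3 and Atf4, genes of the integrated stress response, were both higher in the same libraries. Ddit3, which encodes CHOP, was at 313, 299 and 105 CPM in the libraries labelled Grp78KO 1, 2 and 3, against 11.04, 11.4 and 6.72 CPM in Control 1, 2 and 3 (log2 fold 4.62, SE 0.475, edgeR adjusted p = 0.001). Atf4 was at 455, 448 and 224 CPM in the Grp78KO-labelled libraries, against 139, 140 and 101 CPM in Controls (log2 fold 1.57, SE 0.279, edgeR adjusted p = 0.00542). The libraries numbered 3 were the lowest of their group for Atf3, Ddit3, Atf4 and Hspa5 alike. Relative to the Control mean, Grp78KO 3 lay at -0.59 for Atf3 on the log2 scale, but at 3.43 for Ddit3 and 0.82 for Atf4. The differences between these genes' folds were not tested.

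**Figure D2:**
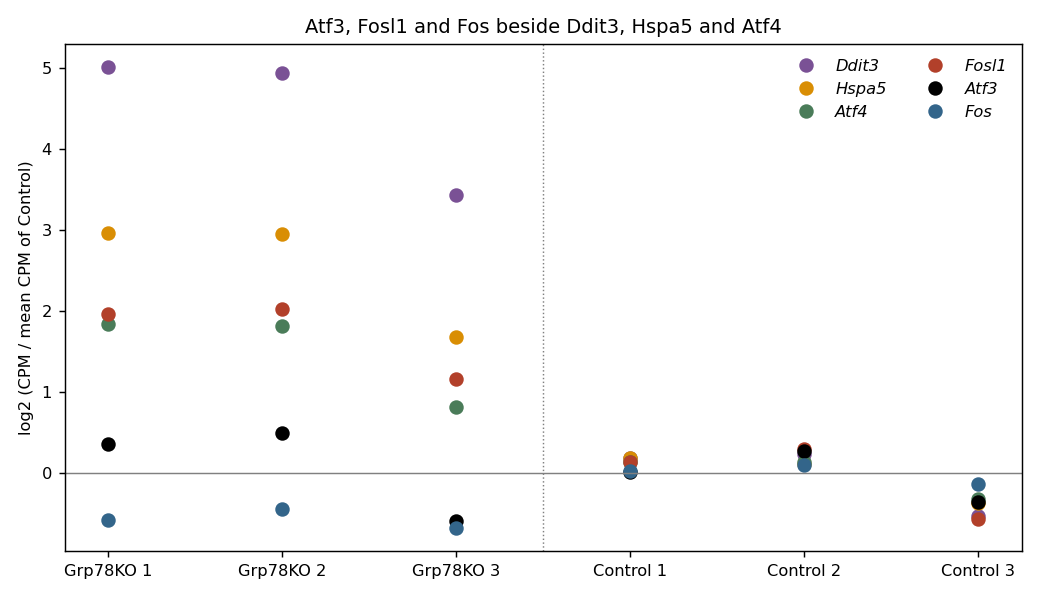
Log2 ratio of CPM to the mean CPM of the Controls (vertical axis) in each of the 6 libraries for Atf3, Fosl1 and Fos beside Ddit3, Hspa5 and Atf4. In Grp78KO 3 Atf3 lies at -0.59, below all 3 Controls, while Ddit3 lies at 3.43.

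Per kilobase of exon the 10 genes kept much the same order of level in both groups. In the Grp78KO-labelled libraries the order of mean CPM per kb was Fos (425), Jund (325), Jun (200), Ier2 (193), Atf3 (176), Junb (159), Egr1 (90.2), Fosb (35.5), Fosl2 (8.20) and Fosl1 (3.76). The libraries of neighbours overlapped from Jun to Ier2, Ier2 to Atf3 and Atf3 to Junb, and not for the other neighbours. In Controls it was Fos (627), Jund (567), Jun (372), Ier2 (299), Junb (260), Egr1 (164), Atf3 (157), Fosb (70.1), Fosl2 (5.90) and Fosl1 (1.11), and there Fos and Jund, Ier2 and Junb, and Egr1 and Atf3 overlapped. Atf3 thus stood above Junb and Egr1 in the Grp78KO-labelled libraries and below both in Controls, where it overlapped Egr1 but not Junb. In the Grp78KO-labelled libraries it overlapped Junb but not Egr1. By CPM, Fos ranked 81st of the 18849 genes in the Grp78KO-labelled libraries and 55th in Controls, while Fosl1 ranked 10286th and 12347th.

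Within groups, Grp78KO 2 was the highest Grp78KO-labelled library for 9 of the 10 genes (25.0% of all genes tested) and Control 2 the highest Control for 9 (23.1%), while Grp78KO 3 was the lowest of its group for 9 (40.6%). Egr1 was the exception among Controls, with its highest value in Control 3. Taken as deviations from the group means over 6 libraries, the 15 pairs among the other 6 genes that fell had Pearson's r of 0.029 to 0.907, whereas Egr1 had a negative r with 6 of the 9 other members (lowest -0.613, with Junb). Atf3 and Fosl1, which differed in their fold, had r = 0.973 for these deviations. These values describe 6 libraries that share depth and scaling, with no test.

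Outside the 10 genes, the patterns over the 6 libraries most like that of Fos (Pearson's r of log2 CPM among 9578 genes with a mean of at least 10 CPM) were those of Arfgap1 (r = 0.995), Hnrnph1 (0.995) and Acbd5 (0.994). For Jun they were Mon1b (0.998), Stk39 (0.996) and Dpp9 (0.995), and for Egr1 they were Unc13b (0.999), Cflar (0.998) and Pard3 (0.998). All 9 were lower in the Grp78KO-labelled libraries, by log2 folds from -0.25 (Stk39) to -0.95 (Pard3). With library size scaling 6 of these calls ended: Arfgap1, Acbd5, Mon1b and Stk39 then had log2 folds of -0.0096, -0.021, -0.053 and 0.0034, and Dpp9 and Cflar -0.28 and -0.26. Arfgap1, Acbd5, Mon1b and Stk39 also lost their call without Grp78KO 1, Grp78KO 2 or Control 2. A gap between the groups dominates such an r.

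**Figure D3:**
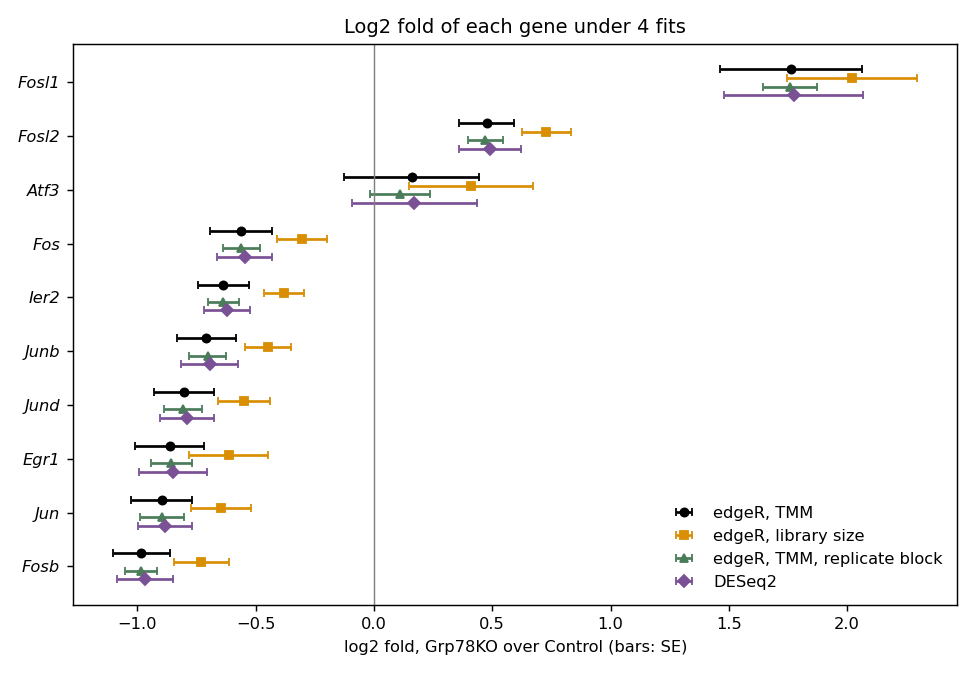
Log2 fold, Grp78KO over Control, with SE bars for each of the 10 genes under edgeR with TMM, with library size scaling, with the replicate number as a block, and under DESeq2. The 7 genes that fell lie left of 0 and Fosl1 and Fosl2 right of 0 under all 4 fits; with library size scaling all values move right.

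The log2 folds moved with the scaling. With library sizes in place of TMM the median log2 fold of all genes shifted by 0.26 and 82.2% of called genes were higher, against 48.9% with TMM; with upper-quartile factors the share was 59.2%. The 7 lower and 2 higher genes kept their direction, and all but Fos kept their call. Fosb then had a log2 fold of -0.73, Jun -0.65, Egr1 -0.61, Jund -0.55, Junb -0.45 and Ier2 -0.38, while Fosl1 had 2.02 and Fosl2 0.73.

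Of 29 immediate early genes outside the 10, 7 were lower and 7 higher, with a median log2 fold of 0.17, near the shares of all genes tested (18.8% lower and 18.0% higher). The lower ones were Sik1 (log2 fold -0.90), a kinase that restrains CREB coactivators; Nr4a1 (-0.86), an orphan nuclear receptor; Zfp36 (-0.69) and Zfp36l1 (-0.59), which speed the decay of AU-rich mRNAs; the antiproliferative genes Btg2 (-0.65) and Btg1 (-0.48); and Dusp1 (-0.53), a phosphatase that switches off MAP kinases. Nr4a1 was at 106, 118 and 93.0 CPM in the libraries labelled Grp78KO 1, 2 and 3, against 156, 198 and 222 CPM in Control 1, 2 and 3. Zfp36 was at 477, 522 and 471 CPM against 824, 818 and 725 CPM in Controls. Neither gene's groups overlapped.

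The higher ones were led by Myc, the growth regulator, at 56.3, 61.0 and 31.8 CPM in the libraries labelled Grp78KO 1, 2 and 3, against 6.46, 6.18 and 3.45 CPM in Control 1, 2 and 3 (log2 fold 3.21, SE 0.332, edgeR adjusted p = 0.00099). The secreted matricellular genes Cyr61 (log2 fold 1.59) and Ctgf (0.97), the nuclear receptor gene Nr4a2 (1.30), Ier5 (0.63), Klf10 (0.45) and the kinase gene Pim1 (0.30) followed. Nr4a2 and Nr4a1, close relatives, thus moved in opposite directions. Calls ended in edgeR for Btg1 without Grp78KO 1, Grp78KO 2, Control 1 or Control 2 (adjusted p = 0.0893, 0.102, 0.0728 and 0.092) or with library size scaling (log2 fold -0.21, adjusted p = 0.223), for Zfp36l1 with library size scaling (-0.32, adjusted p = 0.0835), and for Dusp1 without Control 2 (adjusted p = 0.0557). The Ier5 call ended without Grp78KO 1, Grp78KO 2, Control 1 or Control 3 (edgeR adjusted p = 0.0813, 0.087, 0.0657 and 0.0581), and that of Pim1 without any library except Grp78KO 1 (edgeR adjusted p from 0.0512 to 0.116) and with no filter (0.0602). Without both libraries numbered 3, 13 of these genes were higher, and with library size scaling 11.

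Of 23 tested genes for other bZIP proteins, among them partners and antagonists of AP-1, 6 were higher and 5 lower, with a median of 0.10. Both shares are near those of all genes tested (18.0% higher and 18.8% lower). Ddit3 (log2 fold 4.62) and Nfe2l3 (0.59, SE 0.0911, edgeR adjusted p = 0.00327) were higher, and Bach1, a repressor that pairs with small Maf proteins, was lower at 37.7, 43.9 and 53.4 CPM in the libraries labelled Grp78KO 1, 2 and 3, against 72.4, 80.1 and 89.3 CPM in Control 1, 2 and 3 (log2 fold -0.84). The other higher genes were Atf4, Atf5, Mafk and Maf (log2 folds 0.64 to 1.57), and the other lower ones Batf, Bach2, Creb1 and Atf7 (-1.41 to -0.45). Without Grp78KO 1 or 2 the lower count was 3 and 2, and it was 2 with library size scaling and 8 without both libraries numbered 3.

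Of 14 feedback inhibitors of MAP kinase signalling, 6 were lower and 2 higher, with a median log2 fold of -0.05 (18.8% of all genes tested were lower and 18.0% higher). Spry2, an inhibitor of receptor tyrosine kinase signalling, was at 39.0, 37.1 and 49.8 CPM in the libraries labelled Grp78KO 1, 2 and 3, against 85.6, 89.8 and 105 CPM in Control 1, 2 and 3 (log2 fold -1.16, SE 0.138, edgeR adjusted p = 0.00128). Its relatives Spry1 (log2 fold -1.10) and Spred2 (-0.92) fell as well, and no Grp78KO-labelled library reached a Control for any of the 3. Dusp16 (-1.03), Spred1 (-0.63) and Dusp1 were the other lower genes, and Spry4 (0.78) and Dusp5 (0.61) the higher ones; Dusp1 and Dusp2 also stand among the immediate early genes above. The list summed to 774 to 794 CPM in the Grp78KO-labelled libraries and 1192 to 1241 CPM in Controls.

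Of 22 MAP kinase cascade genes, 4 were lower and 1 higher, with a median of -0.17; the share that was lower is near the 18.8% of all genes tested. Map3k5, the stress-activated kinase ASK1, fell by 0.69 on the log2 scale, Braf by 0.41, Map2k5 by 0.32 and Mapk3, which encodes ERK1, by 0.31, while Mapk11, a p38 kinase gene, had a log2 fold of 0.65. Of 7 genes for SRF and its cofactors, 2 were lower, Mkl1 (log2 fold -0.48) and Srf itself (-0.26, edgeR adjusted p = 0.0484), while Elk3 had -0.41 without passing (edgeR adjusted p = 0.0534). These counts were fragile: without Grp78KO 1, Grp78KO 2 or Control 2 the lower cascade genes numbered 1 each time and the lower SRF genes 0, and without Control 3 the lower SRF genes numbered 1. Without Grp78KO 3 the lower cascade genes numbered 7. With the replicate number as a block, 7 cascade genes and 4 SRF genes were lower, Elk3 among them (edgeR adjusted p = 0.0406). With library size scaling no gene of either list was lower, and Srf had a log2 fold of 0.0019.

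Genes long described as AP-1 targets in other cells were mostly higher. Of 19 tested, 12 were higher and 1, Cd44 (log2 fold -0.46), lower, beside 18.0% higher and 18.8% lower among all genes tested. Their median log2 fold was 1.64, against 0.02 for all genes tested. The median did not change when Mmp10, with 0 counts in every Control, was set to its lower bound of 20.7-fold (3 counts per library as the floor). Spp1, which encodes osteopontin, was at 79.9, 83.7 and 99.1 CPM in the libraries labelled Grp78KO 1, 2 and 3, against 1.63, 0.998 and 1.48 CPM in Control 1, 2 and 3 (log2 fold 6.00, SE 0.208, edgeR adjusted p = 2.76e-05). Plaur, the urokinase receptor gene, had a log2 fold of 2.83 and Ereg, an EGF receptor ligand gene, 3.44. Their groups did not overlap. The targets called higher were low in Controls, with means of at most 6.46 CPM (Sphk1). Among targets with higher Control means, Ccnd1 (370 CPM), Vegfa (107), Hmox1 (84.8) and Hbegf (28.9) were not called, and Cd44 (313) was lower. The 20 listed genes summed to 943 to 1073 CPM in the Grp78KO-labelled libraries and 905 to 948 CPM in Controls, and these ranges overlapped. The Cd44 call ended without Grp78KO 2 or Control 2, where 0 targets were lower, and with library size scaling. Targets were listed from general knowledge of AP-1, but with earlier results of these data known, and many respond to other factors too.

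**Figure D4:**
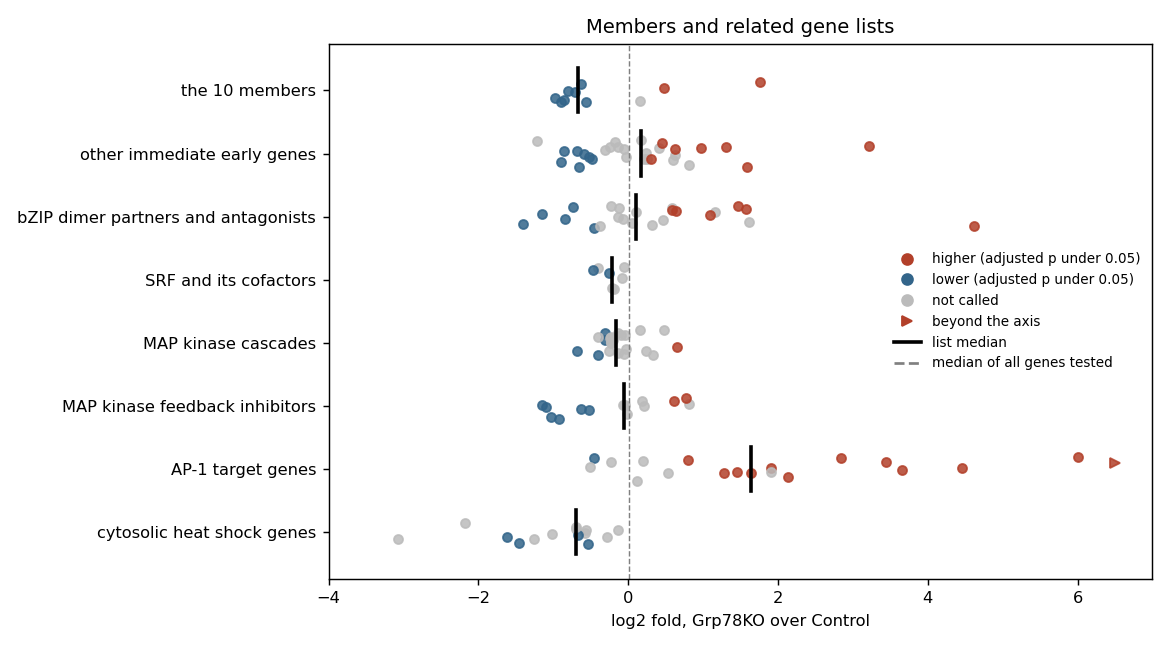
Log2 fold, Grp78KO over Control, of each tested gene in the 10-gene set and 7 related lists; red and blue points passed the test as higher and lower, grey points did not, black bars are list medians and the dashed line is the median of all genes tested. The median of the 10 genes is -0.67 and that of the AP-1 targets 1.64; the arrow marks Mmp10, beyond the axis.

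The sum of heat shock genes, which dissociation and handling can also induce, put Control 3 near the Grp78KO-labelled libraries and below Control 1 and Control 2. The 14 cytosolic heat shock genes summed to 5968, 5927 and 4769 CPM in the libraries labelled Grp78KO 1, 2 and 3, against 11917, 12271 and 4537 CPM in Control 1, 2 and 3. Of them 4 were lower, Hspa4l (log2 fold -0.54), Hsph1 (-1.62), Dnaja1 (-1.46) and Dnajb4 (-0.67), beside 18.8% lower among all genes tested. The count of lower heat shock genes was 12 without Control 3. It was 0 without Grp78KO 1, Grp78KO 2, Control 1 or Control 2, and 2 without Grp78KO 3. Among all genes tested, 5865 were called without Control 3, against 6938 with all 6 libraries. Without Grp78KO 1, Grp78KO 2, Control 1 or Control 2, the genes called numbered 3981, 3779, 5258 and 3706. Without Grp78KO 3 they numbered 8548. With the replicate number as a block, the call of Dnajb4 ended (edgeR adjusted p = 0.063). Control 3 was also the lowest Control for Fos, Junb and Ier2 among the 7 members that fell. In Control 3 each of the 7 lay above all Grp78KO-labelled libraries. Without Control 3 all 7 were called lower, while the higher ones then numbered 1, Fosl1. That fit kept Control 1 and Control 2, with heat shock sums of 11917 and 12271 CPM, and any part of handling in these values was not tested.

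Fibroblast, smooth muscle and mesothelial markers were mostly higher, while leukocyte and endothelial calls stayed near the 18.0% higher among all genes tested. All 10 fibroblast and smooth muscle markers were higher, summing to 1216 to 1345 CPM in the Grp78KO-labelled libraries and 228 to 582 CPM in Controls, with Control 3 at 582 CPM. Of 11 leukocyte markers tested, 2 were higher (Mrc1 and C1qc; limma-voom called 0); the 12 in the table summed to 16.4, 17.4 and 119 CPM in the libraries labelled Grp78KO 1, 2 and 3 and 13.6 to 22.2 CPM in Controls. Endothelial markers summed to 400 to 686 CPM and 386 to 419 CPM in the Grp78KO-labelled and Control libraries (1 of 6 higher, Vwf), and mesothelial markers to 180 to 202 CPM and 103 to 115 CPM (4 of 5 higher, Msln, Upk3b, Wt1 and Lrrn4). The airway secretory gene Scgb1a1 was at 26914 to 30127 CPM in the Grp78KO-labelled libraries and 26136 to 48330 CPM in Controls. The AT2 marker Sftpc was at 14460 to 18606 CPM in the Grp78KO-labelled libraries, below Scgb1a1, and at 43706 to 54845 CPM in Controls. Of 5 airway markers, 0 passed in edgeR, DESeq2 or limma-voom, and 0 had an unadjusted p under 0.05 in edgeR. No listed marker was at 0 in all libraries. The part of these cells, of the lower AT2 markers and of heat shock gene levels in the AP-1 and immediate early values was not tested.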

How the data were processed

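The authors deposited 1 table of raw counts per gene symbol for 6 libraries. Per the labels' protocols, libraries were made with a NEBNext Ultra RNA kit and read in pairs. Per the submitters' processing notes, edgeR 3.7 and the build mm10 were used. For the aligner, counter, strand setting and annotation the answer is: not given in the sources used here. Counts of 2 were 1.63 to 1.76 times as frequent as counts of 1, so both reads of a fragment may have been counted, and counting error may exceed that of independent counts.

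From the deposited counts, genes were filtered with filterByExpr, scaled by TMM and tested in edgeR 4.0.16 (R 4.3.3) with robust quasi-likelihood fits and group as the only term. Each SE from edgeR was obtained as the absolute log2 fold over the square root of the F statistic. For limma-voom it was the absolute log2 fold over the t statistic, and for DESeq2 the standard error it reports. Alternatives were DESeq2 1.42.0, limma-voom (limma 3.58.1), library size, RLE and upper-quartile scaling, no filter beyond 1 count, a filter of 1 CPM in 3 libraries, the replicate number as a block, leaving out each library, and leaving out both libraries numbered 3. The code was tested on simulated counts. Of the symbols, 48018 matched GENCODE M21, the source of coordinates and exon lengths.

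The members and lists were chosen with earlier results of these data known. Named genes were the 10 members, in each list the 3 genes of lowest adjusted p, every called gene of the other immediate early list, Hspa5, and the 3 genes most like Fos, Jun and Egr1; others named in lists, overlaps or markers were chosen after their values were seen. Deviations from group means, on log2 of CPM plus 1, correlated at 0.397, 0.203 and 0.337 between same-numbered libraries and at -0.374 to 0.168 between others. Values over 0.1 also occurred between different numbers (0.168 for Grp78KO 1 with Control 2 and 0.162 for Grp78KO 2 with Control 1). These values do not settle whether the numbers pair the samples, and the labels do not say what they mark. The main fit left the number out, and the block was an alternative. No library pair was merged.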

Additional observations from a re-analysis of the deposited data

How the results depend on the processing

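Over 15 alternatives, the 10 members gave 150 log2 folds, of which 141 kept their direction and their side of the threshold, 7 lost their call (3 for Fos, 4 for Fosl2), 1 gained it and 1 reversed (both Atf3). With 1 library left out, the log2 fold of Atf3 ran from -0.037 (without Grp78KO 2) to 0.43 (without Grp78KO 3). Between 6 and 7 members were lower and 1 to 2 higher with 1 library left out. With 1 library left out, 3706 to 8548 genes were called over the whole table, against 6938 with all 6, and 10581 without both libraries numbered 3, where 7 members were lower and 3 higher. With the replicate number as a block, 8415 genes were called, and 7 members were lower and 2 higher; no member's call changed, and among the other named genes the block ended the call of Dnajb4 and gave Elk3 a call. Library size scaling reversed Srf (log2 fold 0.0019) and Stk39 (0.0034). Over all alternatives, 5 to 13 other immediate early genes were higher and 5 to 9 lower, 2 to 8 bZIP genes were lower (5 with TMM and all libraries), 0 to 4 SRF genes (2), 0 to 11 cascade genes (4), 0 to 14 heat shock genes (4) and 0 to 2 AP-1 targets (1), and 0 to 3 cascade genes were higher (1). The causes were not tested. The lowest raw count of any member in a library was 199, for Fosl1 in Control 3.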
